A study of Mus musculus with 2 samples.

Results

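The genes described here make cholesterol and fatty acids from acetyl-CoA in the embryonic mouse heart, together with the switch that controls them. The set is a list of 29 gene symbols, and the rule that selects its rows uses names and no measured values; rows were found for 28 of them among the 34236 gene symbols of the tables. Hmgcs1, which makes HMG-CoA, was not analysed here. The 28 genes fall into 5 groups by role: 6 of the mevalonate and isoprenoid steps, 3 that make and close squalene, 7 that turn lanosterol into cholesterol, 5 of the SREBP control system and 7 of fatty acid synthesis.

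Total RNA was sequenced from 2 libraries of whole heart at embryonic day 12.5, replicate 1 and replicate 2, both from embryos of mixed C57BL/6 x 129S6 background with no treatment. They form a single group, so no conditions were compared. No source used here says whether the libraries came from separate embryos, pools or litters, so the spread between them may be technical. Levels are in FPKM, fragments per length of transcript and per depth of library, a unit scaled so that genes of different length can be set side by side. Other differences between genes, such as reads shared with other loci, were not corrected for here. Values are given per library or as mean ± SD (n = 2). Among 2881 genes above 0 but under 0.1 FPKM in both libraries, the most frequent ratio of replicate 2 to replicate 1 was 1.32. The bin of that ratio held 297 of them. Taken as relative depth, this puts replicate 1 at 1.32 times replicate 2, while the number of fragments behind each value is not known.

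Cholesterol is built from acetyl-CoA by way of mevalonate, the isoprenoids, squalene and lanosterol, and cells also draw on the intermediates for prenylation and for ubiquinone and dolichol. Fatty acid synthesis starts from the same acetyl-CoA, which ATP citrate lyase releases in the cytosol. Both pathways are controlled by the SREBP transcription factors, membrane proteins that Scap escorts to the Golgi for cleavage when sterols are low and that Insig proteins hold back in the endoplasmic reticulum when sterols are high. An embryo depends on its own cholesterol synthesis for membranes and for Hedgehog signalling, and inherited defects of the late steps cause malformation syndromes in people.

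All 28 genes reached 1 FPKM in both libraries, where 52.4% of protein-coding genes and 36.2% of all genes did so. They sat in the middle of the expressed range. Their median was 12.9 FPKM, with 13.3 in replicate 1 and 12.6 in replicate 2, against 10.9 FPKM for the 11648 protein-coding genes detected at 1 FPKM in both libraries. Of the 28, 17 were at or above that median, where 50% of the detected genes are by construction. Between the lower and upper quartiles of the detected genes, 4.88 and 23.1 FPKM, lay 22 of the 28, where again 50% of the detected genes are by construction. When genes were ranked only against those at 5 FPKM or more in both libraries, 10 of the 28 were above the median. Only 24 of the 28 reached 5 FPKM in both libraries themselves, and the rest were below that median by construction. Only Scd2 was in the top 10% of detected genes, which begins at 50.0 FPKM. Summed over the 28 genes, FPKM came to 547 in replicate 1 and 524 in replicate 2, which is 0.141% and 0.137% of each library's total.

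**Figure D1:**
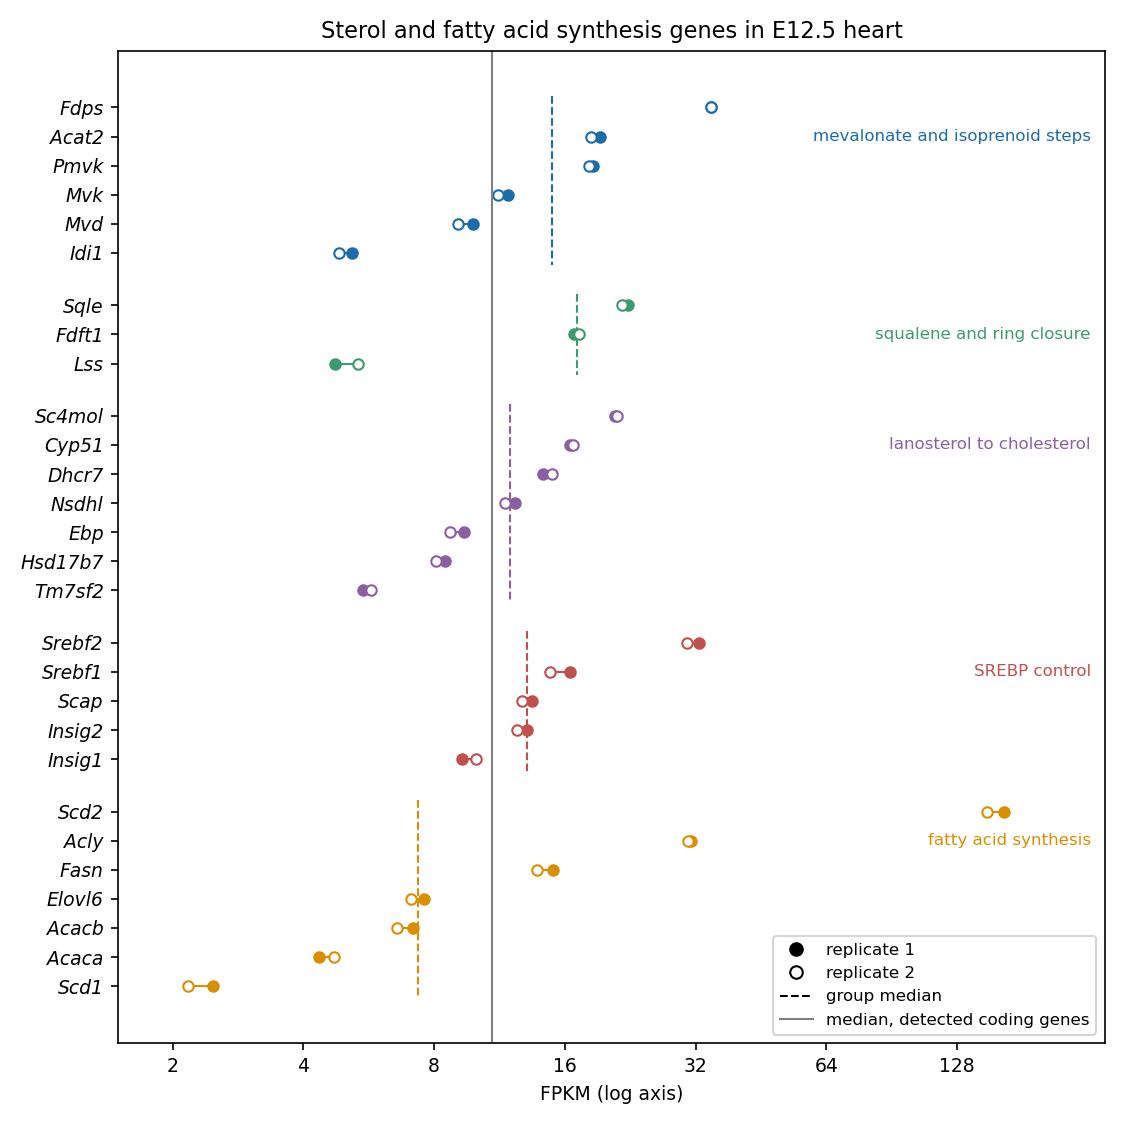
FPKM of each gene on a log axis, with filled points for replicate 1 and open points for replicate 2, sorted within 5 role groups. Dashed lines are group medians of the mean FPKM and the grey line is the median of detected protein-coding genes at 10.9 FPKM; Scd2 stands alone above 100 FPKM and Scd1 is lowest.

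The promoters were examined for sequences that the factors of this pathway are known to bind. SREBPs bind sterol regulatory elements and act on many of their targets together with NF-Y, which binds CCAAT boxes, and Sp1, which binds GGGCGG. Windows of 300 bases, from 250 before to 50 after each annotated start, came from RefSeq on GRCm38.p6 and covered 23 of the 28 genes with 31 windows. Fdps, Sqle, Fdft1, Scd1 and Scd2 had none. Each motif was searched on both strands. CCAAT was found in 19 of the 23 genes (82.6%), against 41.1% of 27025 genes with a window and 43.4% of 9173 detected protein-coding genes. Counted by window, it was in 20 of 31 (64.5%), against 37.4% of all windows. GGGCGG was found in 18 of 23 genes (78.3%), near the 71.5% of detected protein-coding genes though above the 38.2% of all genes. The E-box CACGTG was in 4 genes, Dhcr7, Hsd17b7, Insig1 and Scap (17.4%, against 12.0% of detected protein-coding genes and 8.09% of all genes). The sterol regulatory element consensus TCACNCCAC was in 0 of the 23 genes and in 1.44% of all genes. That says only that those letters are not in these windows. The median GC content was 60.3% for the windows of the pathway and 61.3% for those of detected protein-coding genes. These shares describe the windows and were not tested.

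The 250 bases before the start site are shown for the 5 genes that had 3 or more CCAAT matches there, because they show how the boxes are spaced. This choice was made after the matches were counted. The share of all genes with 3 or more is not reported here, so the 5 serve as examples only. Sequences run 5′ to 3′ toward the start site, and capitals mark CCAAT or its reverse complement ATTGG. The windows are chr5:114444019-114444268 on the plus strand for Mvk, and on the minus strand chr8:64733579-64733828 for Sc4mol, chr1:169969206-169969455 for Hsd17b7, chr11:120824548-120824797 for Fasn and chr1:121332590-121332839 for Insig2 (GRCm38.p6).
Mvk: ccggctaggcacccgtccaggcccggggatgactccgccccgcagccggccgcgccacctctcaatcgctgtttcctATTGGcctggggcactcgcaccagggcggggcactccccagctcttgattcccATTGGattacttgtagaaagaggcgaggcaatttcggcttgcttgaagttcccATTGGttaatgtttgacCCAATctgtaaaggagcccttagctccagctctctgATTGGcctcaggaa
Sc4mol: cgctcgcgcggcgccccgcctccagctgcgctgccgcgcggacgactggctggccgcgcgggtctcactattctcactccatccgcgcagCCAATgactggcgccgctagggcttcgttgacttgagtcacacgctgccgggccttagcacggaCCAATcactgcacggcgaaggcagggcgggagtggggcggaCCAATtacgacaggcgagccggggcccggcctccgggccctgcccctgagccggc
Hsd17b7: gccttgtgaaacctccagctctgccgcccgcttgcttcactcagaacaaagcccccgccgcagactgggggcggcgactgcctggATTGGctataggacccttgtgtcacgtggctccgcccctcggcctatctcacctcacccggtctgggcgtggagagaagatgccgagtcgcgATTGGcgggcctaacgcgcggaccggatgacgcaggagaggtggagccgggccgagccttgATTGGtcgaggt
Fasn: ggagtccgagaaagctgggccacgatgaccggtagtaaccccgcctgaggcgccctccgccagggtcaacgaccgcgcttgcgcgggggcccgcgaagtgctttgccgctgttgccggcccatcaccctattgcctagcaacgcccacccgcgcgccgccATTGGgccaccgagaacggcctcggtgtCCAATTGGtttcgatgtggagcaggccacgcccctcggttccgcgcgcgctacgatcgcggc
Insig2: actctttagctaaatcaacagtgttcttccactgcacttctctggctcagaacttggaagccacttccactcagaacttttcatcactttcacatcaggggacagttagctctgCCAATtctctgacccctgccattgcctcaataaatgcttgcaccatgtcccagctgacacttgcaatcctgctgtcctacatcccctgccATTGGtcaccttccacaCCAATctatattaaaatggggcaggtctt
Mvk had 5 boxes, whose first bases lie 173, 120, 67, 50 and 14 bases before the start. Sc4mol had 3 in a single orientation, 160, 96 and 55 bases before it. In Hsd17b7 they began 165, 73 and 12 bases before the start, also all in a single orientation. Fasn had its boxes at 90, 62 and 59 bases, the last 2 overlapping as a palindrome, and Insig2 at 136, 46 and 29 bases. The Insig2 window shown is that of 1 of 3 annotated starts, and the windows of the other 2 had no CCAAT. The level of these 5 genes ranged from 8.28 FPKM for Hsd17b7 to 21.0 FPKM for Sc4mol, well inside the range of the other genes.

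Over the 6 measured genes of the first sterol steps, which do not include those that make or reduce HMG-CoA, the median was 15.0 FPKM. Fdps, which joins isoprenoid units into farnesyl diphosphate, was the highest of the group at 34.6 FPKM in replicate 1 and 34.7 in replicate 2, at or above 84.0% of detected protein-coding genes (chromosome 3, 88897514 to 88905881, mm9). Acat2, the cytosolic thiolase that condenses acetyl-CoA, was at 19.2 and 18.3 FPKM. Its range overlapped that of Pmvk, phosphomevalonate kinase, at 18.6 and 18.2 FPKM. Mvk, mevalonate kinase, followed at 11.9 and 11.2 FPKM, and Mvd, the decarboxylase that yields isopentenyl diphosphate, at 9.84 and 9.07 FPKM. Idi1, the isomerase between Mvd and Fdps, was the lowest of the group at 5.17 and 4.83 FPKM. Consecutive steps thus differed widely, and Fdps stood 6.94 times above Idi1.

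For several of these genes reads may be shared with other loci. Mvd lies entirely within the span of Gm20388, a protein-coding annotation on the other strand at 26.4 ± 1.28 FPKM, and without a stated strand setting reads of both cannot be told apart. Idi1 has a stretch of 684 bases identical to the pseudogene Gm13502, listed at 0.690 and 1.17 FPKM, and Fdps a stretch of 1062 bases at 98.9% identity to the pseudogene Gm3571, at 0.599 and 1.12 FPKM. Fdps also shares 929 identical bases with Gm43738, a protein-coding annotation whose level was not analysed here. Acat2 shares 445 bases at 98.7% identity with an annotated transcript of Tcp1, a chaperonin subunit at 218 ± 0.921 FPKM. Of the 28 genes, 7 had such a match in another gene for which no overlap was recorded. In 3 of them, Acat2, Cyp51 (166 bases of Akap9) and Elovl6 (79 bases of Trim12c), the other gene was at 1 FPKM or more. Matches whose level was not analysed, such as Gm43738, could not enter the 3, and their positions were not checked for overlap. How the authors' counting divided such reads is not given in the sources used here.

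Squalene synthesis and ring closure had the highest median of the 5 groups, 17.0 FPKM. With 3 genes this is the value of Fdft1 itself, and group medians were not recomputed without overlapped genes. Sqle, the squalene epoxidase, a rate-limiting enzyme of the pathway, was at 22.4 FPKM in replicate 1 and 21.7 in replicate 2. Fdft1, squalene synthase, was at 16.8 and 17.3 FPKM, with the reservation that 769 bases of its gene overlap Ctsb, a lysosomal protease on the other strand at 71.8 ± 0.895 FPKM. Lss, which folds the epoxide into lanosterol, was much lower at 4.74 and 5.33 FPKM. Sqle was 4.38 times Lss, and the libraries of these genes did not overlap.

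The 7 genes that convert lanosterol into cholesterol spanned a 3.75-fold range with a median of 12.0 FPKM. Sc4mol, now called Msmo1, removes methyl groups from the sterol ring and was highest at 20.9 FPKM in replicate 1 and 21.1 in replicate 2. Cyp51, the lanosterol demethylase, was at 16.4 and 16.8 FPKM. Dhcr7, the reductase of the final step that is mutated in Smith-Lemli-Opitz syndrome, was at 14.2 and 14.9 FPKM. The X-linked genes Nsdhl, a sterol dehydrogenase, and Ebp, a sterol isomerase, were lower. Nsdhl was at 12.3 and 11.7 FPKM and Ebp at 9.40 and 8.72 FPKM. Hsd17b7, the ketoreductase that works beside Nsdhl, was at 8.48 and 8.07 FPKM. Tm7sf2, a sterol reductase of the endoplasmic reticulum, was lowest at 5.49 and 5.71 FPKM, and 532 bases of it overlap 1110014N23Rik, now Vps51, on the same strand at 17.3 ± 0.333 FPKM.

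Lbr, the inner nuclear membrane protein that carries the same sterol reductase activity as Tm7sf2, was at 21.7 and 21.2 FPKM, above every library value of Tm7sf2. Sc5d, the desaturase before Dhcr7, was at 12.7 and 12.4 FPKM. Each enzyme named here from squalene to cholesterol was above 4 FPKM in both libraries.

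The SREBP control genes were all close to or above the median of detected genes. Srebf2, the regulator known mainly for sterol genes, was at 32.6 FPKM in replicate 1 and 30.6 in replicate 2 (chromosome 15, 81977696 to 82035806, mm9). Srebf1, known mainly for fatty acid genes, was at 16.5 and 14.8 FPKM. Srebf2 thus exceeded Srebf1 by 0.98 ± 0.04 on the log2(FPKM + 1) scale, with no overlap of the libraries. The files give a single value per gene, so the Srebf1 isoforms were not separated, and 109 bases of Srebf1 overlap Rai1 on the other strand at 12.7 ± 1.22 FPKM. Scap, the escort, was at 13.4 and 12.7 FPKM.

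Of the 2 retention proteins, Insig2 was at 13.1 FPKM in replicate 1 and 12.4 in replicate 2, while Insig1, itself a well-known SREBP target, was at 9.26 and 9.99 FPKM. Insig1 was below Insig2 in both libraries, by 0.46 and 0.29 log2 units. Its mean difference of -0.38 ± 0.12 lay just past 0.32, a limit that 95% of genes averaging at least 1 FPKM stay within when the libraries are compared, and in replicate 2 alone it fell short of it. The proteases that cut SREBPs in the Golgi were both detected, Mbtps1 at 46.1 and 44.5 FPKM and Mbtps2 at 11.8 and 9.73 FPKM (log2 ratio 1.98 ± 0.14). In the list of cleavage and sterol-regulated degradation 7 of 7 genes were detected, with a median of 32.7 FPKM. Its highest member was Pgrmc1, a heme-binding membrane protein that associates with Insig and Scap, at 52.2 ± 0.854 FPKM, and its lowest Ubxn8, an adaptor of endoplasmic reticulum degradation, at 6.60 ± 0.170 FPKM.

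Fatty acid synthesis had the lowest median of the 5 groups, 7.33 FPKM, and the widest range, 67.6-fold. Both ends belonged to stearoyl-CoA desaturases, which place the first double bond in a saturated fatty acid. Scd2 was at 164 FPKM in replicate 1 and 150 in replicate 2, and Scd1 at 2.48 and 2.17 FPKM. The genes are neighbours on chromosome 19, Scd2 at 44368166 to 44381354 and Scd1 at 44468941 to 44482199 (mm9). The log2 ratio of Scd2 to Scd1 was 5.57 ± 0.01, and 6.02 when 0.1 was added in place of 1. No transcript of another gene matched either of them at 98% identity over 75 bases, unlike Idi1 and Fdps. Scd3 and Scd4, the remaining genes of the family, were at 0.290 ± 0.0401 and 0.0994 ± 0.00948 FPKM, so Scd2 held 98.3% of the summed FPKM of the 4 genes in each library.

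Scd2 was 4.53 times the next gene of the whole set, Fdps, and accounted for 30.0% of the summed FPKM of the 28 genes in replicate 1 and 28.7% in replicate 2. Without it the highest gene was 14.9 times the lowest, and the median over all genes was 12.8 FPKM.

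**Figure D2:**
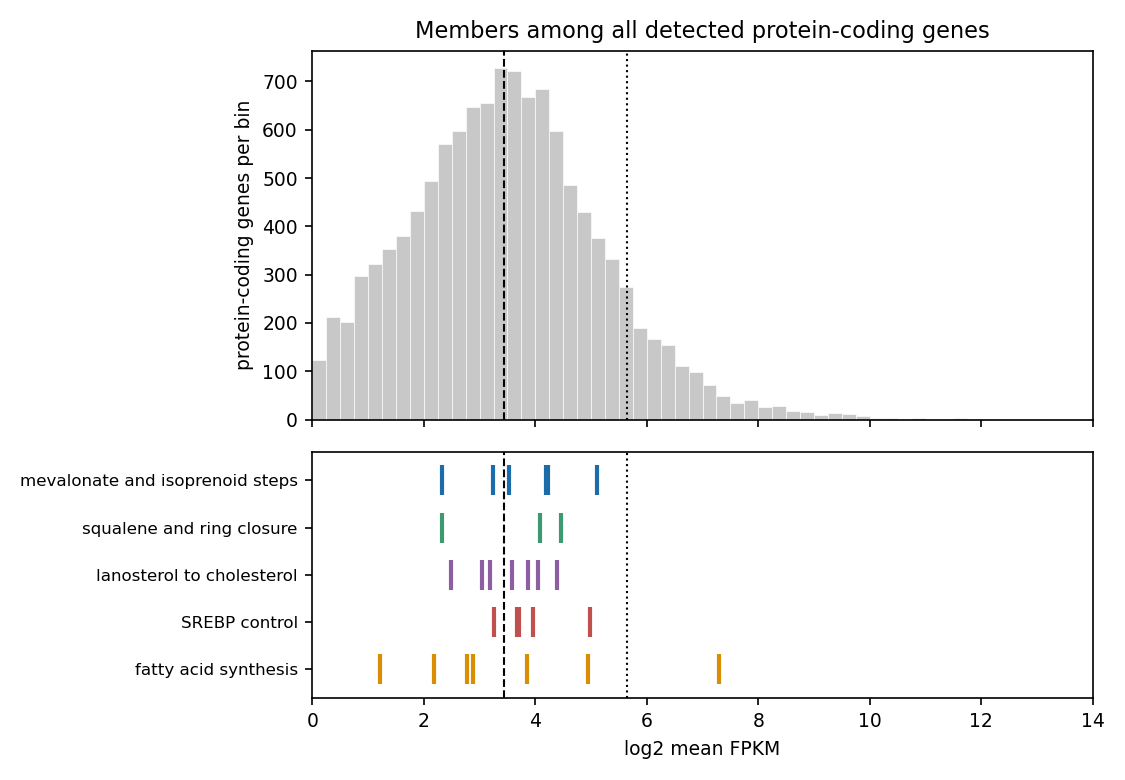
The upper panel counts detected protein-coding genes by log2 mean FPKM; the lower panel marks the 28 genes by role group on the same axis. The dashed line is the median (10.9 FPKM) and the dotted line the start of the top 10% (50.0 FPKM), which only Scd2 passes.

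The genes that feed the desaturases were moderately expressed. Acly, ATP citrate lyase, was at 31.3 FPKM in replicate 1 and 30.7 in replicate 2, within the range of Srebf2. Fasn, the multienzyme that builds palmitate, was at 15.0 and 13.8 FPKM. Elovl6, which lengthens palmitate before desaturation, was at 7.59 and 7.08 FPKM. The acetyl-CoA carboxylases that make malonyl-CoA had lower means, though the library range of Acacb overlapped that of Elovl6. Acacb, the form at the mitochondrial surface that is known to restrain fatty acid oxidation, was at 7.17 and 6.59 FPKM, and Acaca, the cytosolic form that supplies Fasn, at 4.34 and 4.71 FPKM. Acaca was below Acacb in both libraries (log2 ratio -0.51 ± 0.14). The pseudogene Gm5182, whose level was not analysed here, matches 6118 bases of Acaca at 99.2% identity, and its part in the level of Acaca was not tested.

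**Figure D3:**
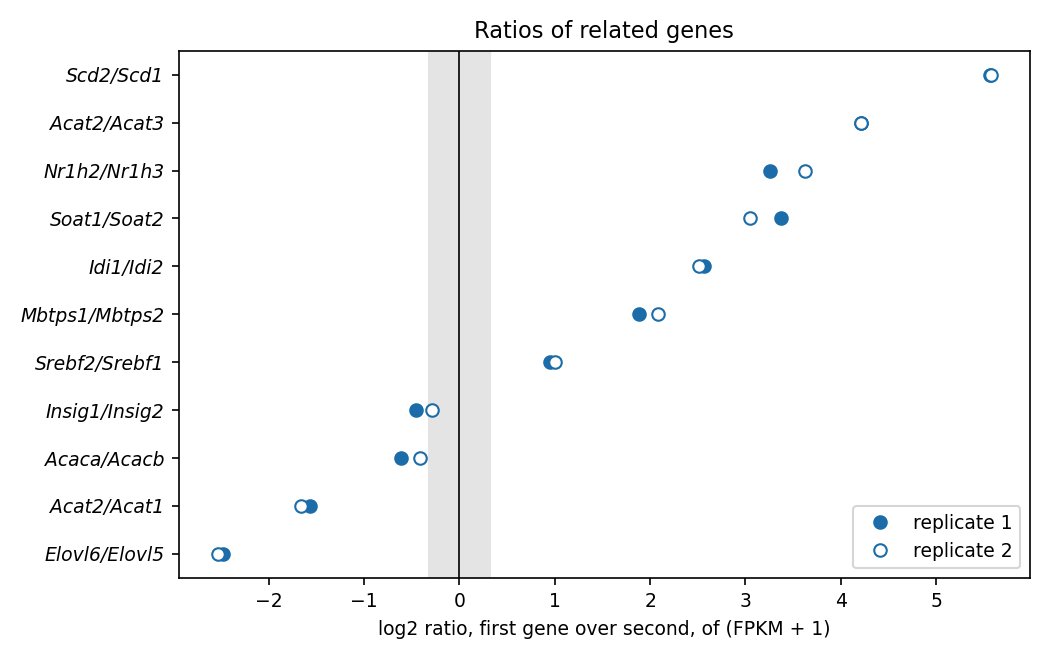
Log2 ratio of (FPKM + 1) for 11 pairs of related genes, with filled points for replicate 1 and open points for replicate 2. The grey band spans 0.32 on either side of 0; Insig1/Insig2 in replicate 2, at -0.29, is the only point inside it.

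Of 12 pairs of related genes listed, 11 were measured, and in 11 the mean log2 ratio lay beyond 0.32. So did 87.9% of all pairs of detected protein-coding genes, so the count says little about these pairs, and the sizes and directions are given as a description. Idi2, Acat3 and Soat2 were under 1 FPKM in both libraries. Idi1 exceeded Idi2, at 0.0330 ± 0.0124 FPKM, by 2.54 ± 0.04, and by 5.26 with a pseudocount of 0.1. Acat2 exceeded Acat3, at 0.0674 ± 0.0397 FPKM, by 4.21 ± 0.01, and by 6.84 with a pseudocount of 0.1, but the 2 transcripts match over 1414 bases at 98.5% identity and reads may have been divided between them. Soat1, which esterifies cholesterol for storage, was at 11.3 ± 0.383 FPKM and exceeded Soat2, the form of liver and intestine, at 0.332 ± 0.177 FPKM, by 3.21 ± 0.24, and by 4.78 with a pseudocount of 0.1. Acat1 and Elovl5, which are not among the 28 genes, exceeded their partners. Acat1, the mitochondrial thiolase of ketone body metabolism, was at 59.0 and 60.2 FPKM and Acat2 lay -1.61 ± 0.07 log2 units from it. Elovl5, which lengthens polyunsaturated fatty acids, was at 46.9 and 45.9 FPKM, and Elovl6 lay -2.51 ± 0.04 from it.

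Other genes of the pathway, in 11 lists, were detected in 62 of 77 measured cases, with a median of 11.3 FPKM. The list of elongation and desaturation had 10 of 15 genes detected and a median of 21.1 FPKM. It was led by Tecr, the reductase of the elongation cycle, at 95.1 ± 3.24 FPKM, and Ptpla, its dehydratase, at 52.4 ± 2.53 FPKM, and its lowest member was Elovl3 at 0.0190 ± 0.00384 FPKM. In the supply of acetyl-CoA and NADPH 6 of 6 were detected, with Pgd of the pentose phosphate pathway at 41.8 ± 0.856, the cytosolic dehydrogenase Idh1 at 29.3 ± 0.646 and Acss2, which activates acetate, at 4.70 ± 0.336 FPKM. The 4 measured genes of mitochondrial fatty acid synthesis were all detected, with Mcat at 12.1 ± 0.0455, Cbr4 at 12.1 ± 0.286 and Oxsm at 4.31 ± 0.948 FPKM.

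The branches that leave the mevalonate pathway had 9 of 9 genes detected and a median of 12.6 FPKM. Fnta, a subunit of the prenyltransferases, was at 30.9 ± 0.151 FPKM, Nus1, a subunit of the enzyme for dolichol, at 15.8 ± 0.383 FPKM and Pdss2, of ubiquinone synthesis, at 5.41 ± 0.0847 FPKM. Uptake, transport and storage of cholesterol had 10 of 11 detected with a median of 11.9 FPKM, led by the lysosomal sterol carrier Npc2 at 41.8 ± 0.149 and the lipoprotein receptor Scarb1 at 26.0 ± 0.536 FPKM. The undetected gene was Soat2.

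Genes for sensing, exporting and degrading sterols were lower. Sensing and efflux had 3 of 6 detected at a median of 1.20 FPKM. The oxysterol receptor Nr1h2 was at 20.9 and 22.5 FPKM, whereas its relative Nr1h3 was at 1.29 and 0.906 FPKM (log2 ratio 3.44 ± 0.26; at a pseudocount of 0.1 it was 4.21). The exporter Abcg1 was at 2.89 ± 0.0564 FPKM, and Abcg8, an exporter of liver and gut, at 0.0305 ± 0.0314 FPKM. Sterol breakdown had 4 of 5 detected, none above the median of detected genes, with Cyp46a1 highest at 2.48 ± 0.147 FPKM and Cyp27a1 at 2.19 ± 0.142 FPKM. Cyp7a1, which starts bile acid synthesis in liver, was listed at 0 in both libraries.

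Lipogenic regulators had 3 of 6 detected, with Mlx at 13.0 ± 0.936 and Mid1ip1, an activator of acetyl-CoA carboxylase, at 12.6 ± 0.258 FPKM. Thrsp, a lipogenic protein known from liver and fat, was at 0.251 ± 0.0470 FPKM. Of the list of ketone body genes and liver paralogues 3 of 5 were detected. The highest was Acat1 and the lowest Idi2.

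**Figure D4:**
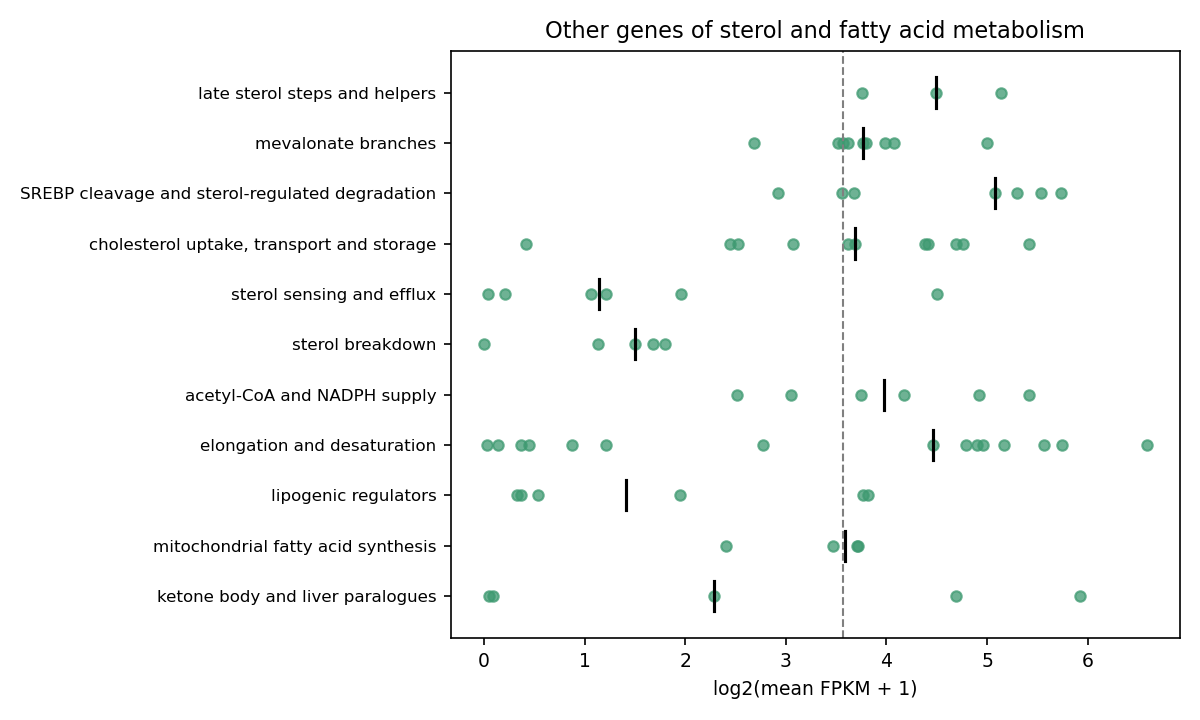
Each point is the log2(mean FPKM + 1) of a gene in 11 lists of related metabolism, black bars are list medians and the dashed line is the median of detected protein-coding genes. The lists of sterol efflux, sterol breakdown and lipogenic regulators have medians of 1.20, 1.83 and 1.65 FPKM, below the others.

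The heart holds several cell types, and fewer cells of a type cannot be told apart from less RNA per cell. All 5 cardiomyocyte markers were detected, and 3 of them were at or above the median of detected protein-coding genes. Tnnt2 was at 1261 ± 46.7, Actn2 at 204 ± 14.6 and Nkx2-5 at 54.1 ± 0.950 FPKM. Ryr2, at 7.66 ± 1.24 FPKM, and Ttn, at 4.17 ± 0.551 FPKM, were below that median. Markers of tissues known for lipid synthesis were low. None of 5 hepatocyte markers reached 1 FPKM in both libraries, and their summed level was 1.80 FPKM in replicate 1 and 2.997 in replicate 2, led by Afp at 0.858 and 1.49 FPKM. The 4 adipocyte markers summed to 0.0236 and 0.0549 FPKM, with Lep listed at 0, and 3 lung epithelium markers to 0.0189 and 0.0293 FPKM. The 4 markers of steroid-producing cells summed to 2.17 and 2.55 FPKM, none reaching 1 FPKM in both libraries. Of 3 markers of myelinating cells 2 were detected, with Mbp highest at 3.53 ± 0.0984 FPKM and a summed level of 6.21 and 6.05 FPKM. All 3 measured macrophage markers were detected, with a summed level of 6.68 and 5.98 FPKM. The part of these cells in the levels of the pathway was not tested.

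The libraries gave nearly the same values for the pathway. None of the 25 genes that averaged at least 5 FPKM differed 2-fold, where 0.347% of the 8924 genes at that level did. None of the 28 differed by more than 0.32 log2 units, where 5% of 12637 genes do by construction. The differences, replicate 2 minus replicate 1, ran from -0.15 for Srebf1 to 0.14 for Lss, with a median size of 0.07 against 0.06 for protein-coding genes in the same range of levels. Of the 28, 19 were lower in replicate 2 (67.9%), near the 70.3% of those protein-coding genes. The smallest two-sided p that an exact sign-flip test allows with 2 libraries is 0.5, so no p-value is given.

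In the order of levels, the library ranges of neighbouring genes did not overlap in 16 of 27 steps and overlapped in 11. The share of such steps among other genes is not reported here, so these counts only describe the order. The top of the order was Scd2, Fdps, then Srebf2 and Acly, which could not be separated, then Sqle and Sc4mol. In the middle, the wide range of Srebf1 overlapped both Cyp51 and Dhcr7, and Dhcr7 overlapped Fasn, while both libraries of Cyp51 lay above those of Dhcr7 and Fasn. The lower end ran from Acacb through Tm7sf2 to Lss and Idi1, which overlapped each other, and then to Acaca and Scd1, each apart from its neighbour.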

How the data were processed

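The authors deposited a table per library with an FPKM value for each gene, 37620 rows with positions on mm9. The submitters' processing notes name GSNAP, Cufflinks, Cuffnorm and the builds mm9 and hg19. Their versions, the annotation, how strand was treated and what was done with shared reads are not stated there. Rows with the same symbol were summed. Detection required at least 1 FPKM in both libraries. Log2 values used a pseudocount of 1 FPKM, which understates differences of low genes. With 2 libraries of a single group no test was made. The 28 genes are selected by symbol and not by level, but they and the other lists were chosen with earlier results of these data known. All 28 genes are named; of other lists the 2 highest and the lowest, and both genes of pairs, though some genes that this takes are not reported here. Gene IDs of all 28 were found in the name table, 27 under the same symbol. Shared sequence was sought in GENCODE M21 transcripts with BLAST 2.17.0 (98% identity over at least 75 bases). Relative depth came from 2881 genes under 0.1 FPKM in both libraries. Python 3.11.15, NumPy 2.4.6, pandas 2.3.3 and Matplotlib 3.10.9 were used. The 2-fold rule and the estimate of relative depth were tried on simulated data, and the other steps were not. Alternatives were another pseudocount, detection limit, filter and reference set, rescaled libraries, each library alone and the highest row for each symbol. Leaving out Scd2 or overlapped genes was added after the data were examined.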

Additional observations from a re-analysis of the deposited data

How the results depend on the processing

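Against protein-coding genes at 5 FPKM or more in both libraries, 10 of the 28 genes were above the median, instead of 17. Genes of the 28 under 5 FPKM were kept in this count and fall below that median by construction. In replicate 2 alone, 10 of 11 ratios of related genes lay beyond the limit of 0.32, since Insig1/Insig2 was at -0.29. With a pseudocount of 0.1 the count was also 10, since Insig1/Insig2 was at -0.41 against a limit of 0.42. No ratio changed sign under any alternative run. The median of the 28 genes was 12.6 to 13.3 FPKM in the single libraries and 13.1 FPKM after rescaling. Without the 4 genes overlapped by another gene at 1 FPKM or more, it was 12.9 FPKM and 15 of 24 genes were above the median of detected genes. At a limit of 5 FPKM, 24 of 28 were detected. The share of all protein-coding genes at that limit is not reported here, so this count has no reference beside it. No paired analysis was possible because both libraries belong to a single group. Depth is not known in fragments, so no counting error can be given.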
